A study of Mus musculus with 2 samples.

Results

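Mir221 and Mir222 are a pair of neighbouring miRNA genes on chromosome X. They were taken by symbol from the 2202 miRNA genes of GENCODE M21 that the count tables list, and both were found, so the pair makes up 2 of 2202 genes. The pair was described in microRNA sequencing of left cerebral cortex from mice of 18 to 20 months of the strain B6CASTF1/J, a cross of C57BL/6J with CAST/EiJ. There was 1 group, with 2 libraries numbered as biological replicates 1 and 2, prepared from total RNA with a size range under 30 nucleotides. No treatment and no second group are named in the labels. They give the sex as female in some fields and as male in another, and both libraries carry 1 donor identifier with different biosample identifiers. The spread between the libraries may therefore be technical.

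A miRNA is cut from the hairpin of a longer transcript, and its seed, bases 2 to 8 from the 5′ end, pairs with target mRNAs and lowers their output. miR-221 and miR-222 are made from a shared primary transcript and have the same seed on their 3p arms. They are best known as repressors of the cell-cycle inhibitor p27 (Cdkn1b) and of the receptor Kit in human cells, where they act in tumours, endothelium and red cell precursors, and in rat vascular smooth muscle they favour proliferation. In rat neuron-like PC12 cells they are induced by nerve growth factor.

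The sequences of the mature miRNAs show what the genes share and where they part. They are given 5′ to 3′ from RefSeq (GRCm38.p6), with the seed in capitals, and include the 1 other mouse miRNA of that table with the 3p seed, miR-1928.
mmu-miR-221-3p: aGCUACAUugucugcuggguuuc
mmu-miR-222-3p: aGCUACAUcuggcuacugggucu
mmu-miR-1928: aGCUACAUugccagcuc
mmu-miR-221-5p: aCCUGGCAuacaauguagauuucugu
Both 3p arms have 23 bases. They are identical over the first 8 and then differ, with 11 of 23 positions the same when aligned without gaps. Of 1738 mature sequences in the table, 3 carry the seed of the 3p arms, and only the miR-221 5p arm carries its own. Mir1928, on chromosome 1, had 0 sense counts in both libraries, which allows a level of at most 0.581 CPM for replicate 1 and of 0.673 CPM for replicate 2 (3 counts per library).

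The hairpins, with the mature arms listed in RefSeq in capitals, show how far the genes differ outside the seed.
pre-Mir221: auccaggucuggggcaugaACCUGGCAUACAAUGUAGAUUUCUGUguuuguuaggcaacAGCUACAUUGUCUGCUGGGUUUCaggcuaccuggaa
pre-Mir222: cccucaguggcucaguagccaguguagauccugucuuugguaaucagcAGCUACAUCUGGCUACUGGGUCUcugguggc
The longest stretch that both hairpins share is 9 bases. No 20-base stretch of either hairpin, on either strand, was found in any other gene among 141767 GENCODE M21 transcripts. The rest of the genome was not searched. The deposited counts are per hairpin gene, so the arms cannot be separated in them.

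Mir221 (ENSMUSG00000065422.1) lies on the minus strand of chromosome X at 19146294 to 19146388 (mm10), and Mir222 (ENSMUSG00000065471.1) on the same strand at 19146893 to 19146971, so that Mir222 comes first in the direction of transcription. The hairpins are 504 bases apart and the cluster spans 678 bases. GENCODE M21 places no other gene over it, so in this annotation the cluster is intergenic. The nearest annotated gene on the same strand is Gm14636, a processed transcript at 19156981 to 19167241, which ends 10010 bases upstream of Mir222.

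By counts that leave out reads with several places in the genome, Mir221 was one of the more abundant miRNA genes of this cortex tissue. Mir222 was present at a lower level in both libraries. The reads left out were 41.8% of all in replicate 1 and 46.4% in replicate 2. Genes with identical copies can thus stand too low in the ranks and the median given here. Levels are CPM, the sense count divided by the sense counts of all miRNA genes in the library and multiplied by 1000000. Replicate 1 held 5166667 such counts and replicate 2 held 4459993. Mir221 had 18744 counts in replicate 1 and 31001 in replicate 2. This gave 3628 CPM in replicate 1 (95% exact binomial interval 3576 to 3680) and 6951 CPM in replicate 2 (6874 to 7028). Its mean was 5289 ± 2350 CPM (SD, n = 2), rank 38 of 2202, with rank 48 in replicate 1 and rank 32 in replicate 2.

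Mir222 had 4593 counts in replicate 1 and 6222 in replicate 2. Its levels were 889.0 CPM in replicate 1 (863.5 to 915.0) and 1395 CPM in replicate 2 (1361 to 1430). Its mean was 1142 ± 357.9 CPM (SD, n = 2), rank 90, with rank 99 in replicate 1 and rank 74 in replicate 2. The level intervals cover counting error only, and for both genes those of the libraries do not overlap. Counting as expressed any gene with at least 2 CPM in each library gave 409 genes, whose median was 88.9 CPM. Mir221 stood 59.5-fold above that median and Mir222 12.8-fold.

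**Figure D1:**
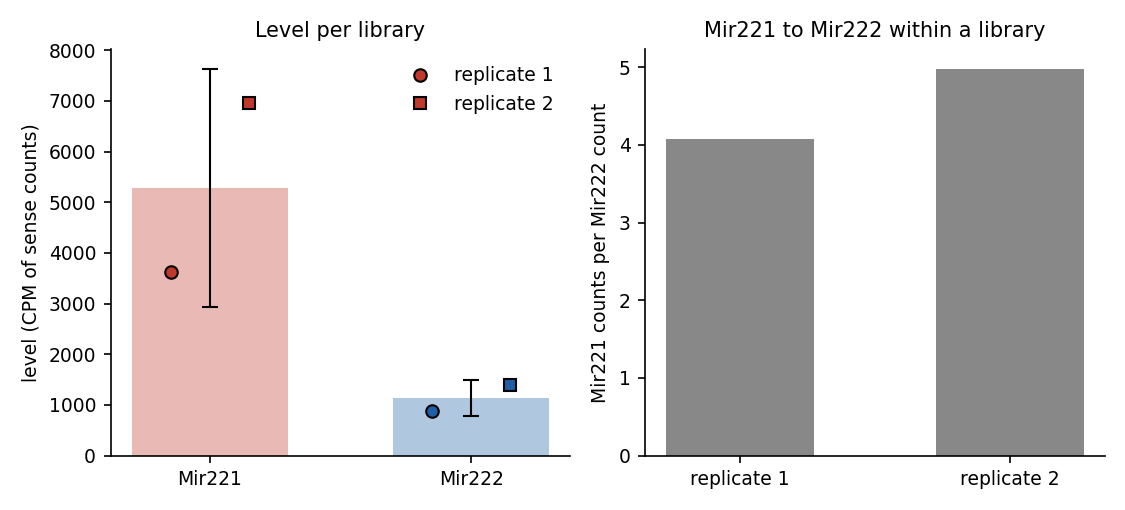
Left, levels of Mir221 and Mir222 in CPM of sense counts, with a point per library, bars for the mean and error bars for the SD of the 2 libraries. Right, Mir221 counts per Mir222 count in each library, 4.08 in replicate 1 and 4.98 in replicate 2. The lower Mir221 value, 3628 CPM, is above the higher Mir222 value, 1395 CPM.

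The order of the pair was the same in both libraries. Mir221 had 4.08 counts per Mir222 count in replicate 1 and 4.98 in replicate 2, a mean of 4.53 ± 0.637 (SD, n = 2). The log2 ratio of Mir221 to Mir222 was 2.17 ± 0.20, so the gap between the genes was larger than the spread between the libraries. Counts were compared without scaling to hairpin length, as the libraries hold RNA of mature miRNA size. The ratio is one of counts per gene, with the arms not separated. Whether RNAs of both genes enter the libraries equally well was not tested. Of the counts of the pair, Mir221 took 80.3% of those in replicate 1, with a 95% exact interval of 79.8% to 80.8%, and 83.3% in replicate 2, with one of 82.9% to 83.7%. Together the genes held 0.452% of all sense counts in replicate 1 (0.446% to 0.458%) and 0.835% in replicate 2 (0.826% to 0.843%), a mean of 0.643% ± 0.271.

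In the order of mean levels, the neighbours of each gene lay within the spread of the libraries. Mir383 (5579 ± 425.4 CPM) stood just above Mir221 and Mir324 (5188 ± 4.84 CPM) just below it. Mir185 (1191 ± 123.7 CPM) stood just above Mir222 and Mir181c (1094 ± 238.7 CPM) just below it. These places are thus not settled by 2 libraries.

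The genes most like Mir221 over the 2 libraries were Mir379 (3935 CPM in replicate 1 and 6013 in replicate 2), Mir335, Mir361, Mir541 and Mir382. Likeness was the Euclidean distance of log2(CPM + 1) and ran between 0.240 for Mir379 and 0.455 for Mir382. Those most like Mir222 were Mir93 (955.2 CPM in replicate 1 and 1209 in replicate 2), Mir872, Mir185, Mir370 and Mir31, at distances between 0.231 and 0.427. With 2 libraries this likeness is mainly one of level. No gene was on both lists, and Mir361 was the only one of the 10 on chromosome X.

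Both genes were higher in replicate 2 than in replicate 1. TMM scaling corrects library totals for differences in composition. The TMM-scaled log2 ratio of replicate 1 to replicate 2 was -1.07 for Mir221 and -0.78 for Mir222. A two-sided exact binomial test of the pooled count with Benjamini-Hochberg adjustment gave an adjusted p below 1e-300 for Mir221 and of 1.16e-171 for Mir222. That test knows counting noise alone and compares 2 libraries, not conditions. It called 294 of the 438 genes tested (67.1%), and 143 of them (32.6%) were higher in replicate 2, so a call towards replicate 2 was common among miRNA genes. The split moved with the scaling: 151 genes were higher in replicate 1 and 143 in replicate 2 with TMM, 178 and 119 with library totals, and 146 and 155 with DESeq2 size factors. Mir221 and Mir222 were called towards replicate 2 under each of these. When the common spread of the libraries (edgeR coefficient of variation 45.1%) was instead put into the exact test of edgeR for all genes alike, neither Mir221 nor Mir222 passed, with an unadjusted p of 0.263 for Mir221 and 0.412 for Mir222 and an adjusted p of 1 for both. With single libraries compared, and the spread taken from the difference between those very libraries, few genes can pass, and a miss says little about either gene. The same test called 2 of 438 genes (0.457%), and 31 genes (7.08%) had an unadjusted p under 0.05.

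Among the 409 expressed genes, 84 (20.5%) had a larger absolute log2 ratio than Mir221 and 137 (33.5%) a larger one than Mir222. Only 25 genes lay further towards replicate 2 than Mir221 and 48 further than Mir222. The median log2 ratio of replicate 1 to replicate 2 over expressed genes was 0.04. In tissue RNA, more cells of a type and more of the miRNA per cell cannot be told apart.

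**Figure D2:**
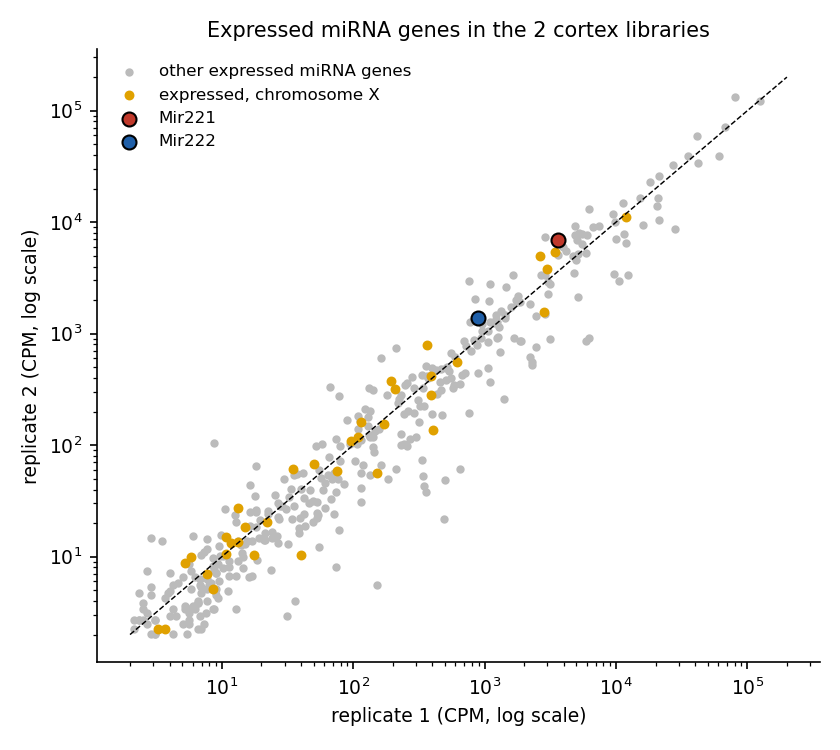
Level of each of the 409 expressed miRNA genes in replicate 1 (x axis) and replicate 2 (y axis), in CPM on log axes, with the 37 expressed genes of chromosome X in colour, Mir221 and Mir222 among them. The dashed line marks equal levels. Mir221 and Mir222 lie above it, inside the cloud of other genes.

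Beyond counting noise, the neighbours did not change by the same factor. The log2 ratio of Mir221 to Mir222 was 2.03 in replicate 1 and 2.32 in replicate 2, a difference of -0.29 (two-sided Fisher's exact test on the 4 counts, p = 2.81e-20, counting noise alone). To set this beside other clusters, the same difference was taken for every adjacent pair of expressed miRNA genes on 1 strand whose starts lay within 10 kb. There were 87 such pairs, 75.9% of which passed the Fisher test after adjustment over all of them. The median absolute difference was 0.75. The difference for Mir221 and Mir222 was 0.29, and 21 pairs (24.1%) had a smaller one. Both partners were on the same side of zero in 49 of the 87 pairs, and both were higher in replicate 2 in 24.

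Mir221, the downstream gene, exceeded Mir222 by 2.21 on the log2 scale of mean CPM, and 57 of the 87 pairs had a larger gap, with a median of 3.35. The downstream gene was the higher one in 39 of 87 pairs, so no side was the rule. Pairs are not independent, as longer clusters contribute several.

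Compared with 3 other neighbouring pairs, Mir221 and Mir222 had the smallest gap in level and the smallest difference in between-library ratio. Mir132, induced by neuronal activity, exceeded its upstream neighbour Mir212 by 6.11, and their between-library log2 ratios were 0.20 and 0.52, a difference of 0.32. For Mir145a and its upstream neighbour Mir143, miRNAs of smooth muscle, the gap in level was -3.87. Their ratios of replicate 1 to replicate 2 were -1.95 and -1.04, a difference of 0.90. For Mir27a and its upstream neighbour Mir23a the gap was -6.55, and their ratios were 0.00 and -0.53, a difference of 0.53. Mir23a and Mir27a have near-identical copies on another chromosome, so their counts are uncertain. Each of these differences passed the Fisher test across the 87 pairs (adjusted p of 2.14e-14, 3.66e-74 and 2.82e-11), as did that of Mir221 and Mir222 (6.99e-20). Whether the differences themselves differ between pairs was not tested.

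**Figure D3:**
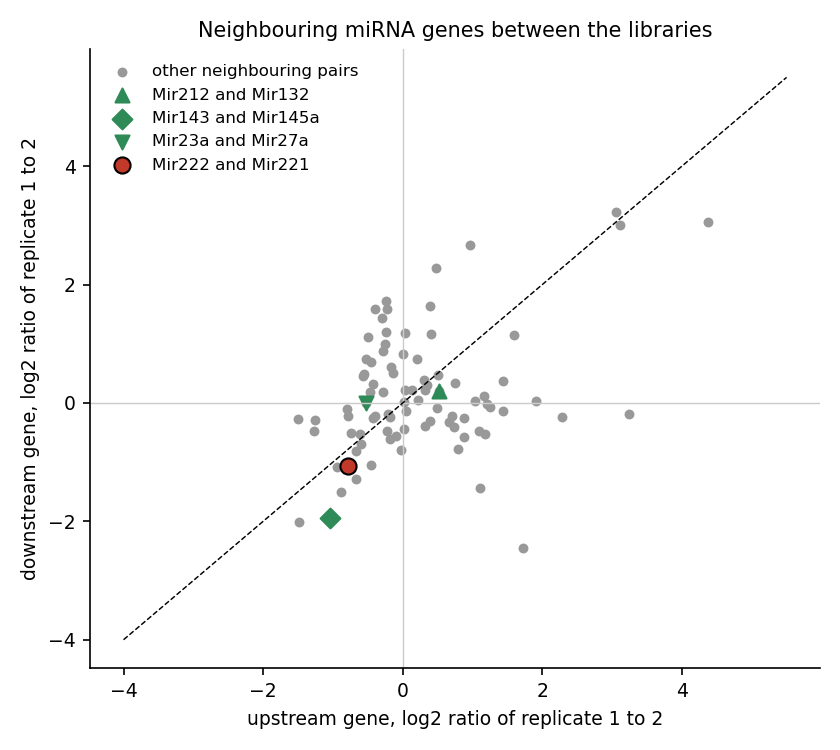
TMM-scaled log2 ratio of replicate 1 to replicate 2 for the upstream gene (x axis) and the downstream gene (y axis) of each of 87 neighbouring pairs of expressed miRNA genes. The dashed line marks equal ratios. Mir222 and Mir221 (-0.78 and -1.07) lie near the line on the side of replicate 2. Mir143 and Mir145a (-1.04 and -1.95) lie on the same side and further from the line.

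On chromosome X, Mir221 was the second most abundant of 37 expressed miRNA genes and Mir222 was the seventh. The highest was Mir652, with 11871 CPM in replicate 1 against 11210 CPM in replicate 2. Below Mir221 came Mir361 (4403 ± 1389 CPM), Mir98 (3832 ± 1669 CPM), a let-7 relative, and Mirlet7f-2 (3387 ± 544.8 CPM), whose count is uncertain because it has a copy elsewhere. The ranges of Mir221, Mir361 and Mir98 over the libraries overlap. Of 142 annotated genes on the chromosome 26.1% were expressed, compared with 18.1% of 2054 on autosomes. Expressed genes had a median of 103.3 CPM on chromosome X and 88.3 CPM on autosomes. Mir221 and Mir222 together held 14.2% of the chromosome's sense counts in replicate 1 and 21.3% in replicate 2.

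Of 39 tested genes of chromosome X, 6 (15.4%) were called higher in replicate 1 and 19 (48.7%) in replicate 2, where 34.5% and 32.6% of all tested genes were called. Mir361 (log2 ratio of replicate 1 to replicate 2 of -0.78), Mir98 (-1.05) and Mirlet7f-2 (-0.46) were on the same side as Mir221 and Mir222, while Mir676 (0.73) was higher in replicate 1. The median log2 ratio of the 37 expressed genes was -0.26. The counts were 9 and 13 with library totals, and 5 and 20 with DESeq2 size factors. Mir652 is among the 19 by its TMM-scaled log2 ratio of -0.05, while its ratio on library totals was 0.08. The 19 include Mir221 and Mir222 themselves, and neighbouring genes such as Mir98 and Mirlet7f-2 are not independent. These shares are a description, and no test of the chromosome as a group was made.

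**Figure D4:**
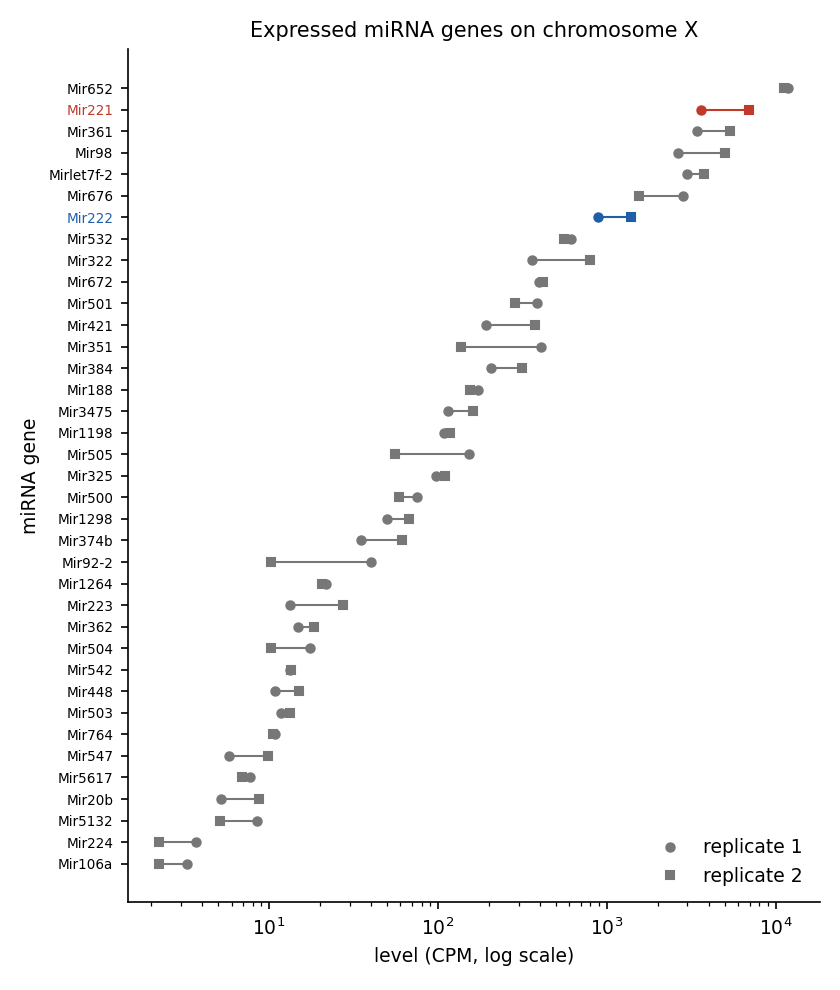
Level of the 37 expressed miRNA genes of chromosome X in CPM on a log axis, with a circle for replicate 1 and a square for replicate 2, ordered by mean. Mir221 is the second gene and Mir222 the seventh, each with replicate 2 above replicate 1.

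Markers of other cell types were set beside the pair. The counts of calls below are read against all tested genes, of which 34.5% were called higher in replicate 1 and 32.6% higher in replicate 2. The tissue label was met by neuronal miRNAs, with 6 of 9 list genes expressed and a sum of 79200 CPM in replicate 1 against 66018 CPM in replicate 2, although the 3 genes of miR-124, which has identical copies, had at most 21 counts. By their names, miR-128 and miR-138 also have 2 genes each in the list, so the counts of these genes are uncertain too. Of 7 tested neuronal genes, 4 were called higher in replicate 1 and 2 higher in replicate 2. The expressed ones had a median log2 ratio of 0.03. Mir137, a regulator of neuronal maturation, had 5203 CPM in replicate 1 against 8033 CPM in replicate 2, a log2 ratio of -0.76. The ratios of the other tested neuronal genes were 1.38 (Mir124a-1), 0.40 (Mir128-1), 0.20 (Mir132), 0.06 (Mir128-2), -0.003 (Mir138-1) and -0.05 (Mir138-2). Of the endothelial genes, Mir126a, at 21257 CPM in replicate 1 but 10411 CPM in replicate 2, went opposite to Mir221 (log2 ratio 0.90), and Mir126b had no count. The mural list, miRNAs of smooth muscle and pericytes, was on the side of Mir221, with 5077 CPM in replicate 1 against 9897 CPM in replicate 2, and both of its 2 tested genes, which are neighbours, were called higher in replicate 2.

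Genes of microglia and leukocytes together had 1937 CPM in replicate 1 against 2002 CPM in replicate 2. Most of that sum was Mir150, with 1286 CPM in replicate 1 against 1154 CPM in replicate 2 (log2 ratio 0.03). The median log2 ratio of the expressed genes was -0.88, with 4 of 5 tested genes called higher in replicate 2 and Mir142b at 0. Choroid plexus and ciliated epithelium genes had 723.9 CPM in replicate 1 against 1111 CPM in replicate 2, with 2 of 4 tested genes called higher in replicate 2. Red cell genes had 122.1 CPM in replicate 1 against 71.5 CPM in replicate 2, with Mir451b at 0 and 2 of 3 tested genes called higher in replicate 1. Oligodendrocyte genes had 3945 CPM in replicate 1 against 3862 CPM in replicate 2, with 1 of the 2 genes called in each direction. Mir219a-2 is by its name 1 of several genes of miR-219a, so its count is uncertain. With 1 to 7 tested genes a list, these counts single out no cell type. The part of these cell types in the levels of Mir221 and Mir222 was not tested.

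The miR-17 and miR-106b clusters, are tied to proliferation like miR-221 and miR-222. Their 9 genes had 2352 CPM in replicate 1 against 2078 CPM in replicate 2. Of 7 tested genes, 2 were called higher in replicate 1 and 3 higher in replicate 2, beside 34.5% and 32.6% of all tested genes, with Mir92-1 (1.85), which has a copy on chromosome X and is uncertain, and Mir20a (-1.03) at the ends. By the counts kept here, Mir221 alone exceeded the sum of these 9 genes in both libraries. Mir19a had 0 counts in both libraries and Mir19b-1 had 1 count in each. Reads matching more than a single place are absent from this sum, which can thus be too low for genes with copies. Whether Mir221 would exceed a sum that includes such reads was not tested.

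Neither gene had an antisense count in either library. The limit that a count of 0 allows is the same 3 counts per library as for Mir1928. The column counted without strand gave the same 18744 and 31001 counts for Mir221 and 4593 and 6222 for Mir222. No miRNA gene lies opposite the cluster in this annotation.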

How the data were processed

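The authors deposited raw counts of reads for each miRNA gene, with a table for each library. Mouse build mm10 and GENCODE M21 were used, per the description deposited beside the tables. Which aligner and counter were run is not given in the sources used here. The tables have a count column without strand and 1 for each strand. The first stranded column was taken as sense, and it had the larger total in both libraries. Lines for reads that name no gene held 65.2% of reads in replicate 1 and 65.1% in replicate 2, including 41.8% and 46.4% with several places in the genome, and were left out of totals and tests.

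Hairpin coordinates in RefSeq equal those of GENCODE M21 for both genes. Ratios add 0.5 to each count and use TMM totals (edgeR 4.0.16). Compared with raw totals, TMM moved all log2 ratios of replicate 1 to replicate 2 by -0.13 and DESeq2 1.42.0 size factors by -0.20. The binomial test took genes with at least 20 counts over both libraries, with Benjamini-Hochberg adjustment at 0.05. Binomial and Fisher tests used scipy 1.17.1. The tests across genes were run on simulated counts with known changes. For the binomial test these counts held counting noise alone, so they do not show how it behaves with the spread of these libraries. No source used here mentions molecular identifiers. Intervals and counting tests thus treat each read as an independent count, and repeated reads of a molecule were not accounted for. The intervals cover counting error of reads only and may be too narrow.

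The pair, the 8 marker lists and the comparison pairs were chosen with earlier results of these data known. Named genes were the pair, the 5 nearest in level to each, the 5 highest on chromosome X, genes with the same seed, list members and 3 neighbouring pairs. Mir676 and the genes next in rank were named after their values were seen. Loss of CAST/EiJ reads that differ from mm10 was not tested.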

Additional observations from a re-analysis of the deposited data

How the results depend on the processing

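No paired analysis was possible because the study has 1 group. With all reads, those naming no gene included, as the denominator, the level was 1844 CPM for Mir221 and 398.0 CPM for Mir222, by construction of the larger total. With edgeR's exact test and the common spread, the log2 ratio of replicate 1 to replicate 2 stayed at -1.07 for Mir221 and -0.78 for Mir222 with an adjusted p of 1, and 2 genes were called across the table, against 294. That test allows for spread between libraries, estimated from the same 2 libraries, as well as counting noise. Leaving out 1 library gave 3628 to 6951 CPM for Mir221 and 889.0 to 1395 CPM for Mir222, log2 ratios of Mir221 to Mir222 of 2.03 to 2.32, ranks of 32 to 48 for Mir221 and 74 to 99 for Mir222, and 434 to 451 expressed genes; the ratio between the libraries needs both. Of all recomputed values, 54 kept their call, stayed within the SD of the libraries or the interval of the share, or, for counts of genes, within 1.5 times the count reported (300 genes were expressed at 10 CPM against 409 at 2 CPM); 3 moved and 2 lost their call. Part of the 54 was fixed in advance. With 2 libraries, leaving 1 out moves the mean of a level or log2 ratio by less than their SD. For Mir221 and Mir222 the counts without strand equal the sense counts, so their ratio could not change with that column. Fisher's exact test uses no prior count. The log2 ratio of replicate 1 to replicate 2 ran from -1.14 to -0.94 for Mir221 and from -0.85 to -0.65 for Mir222. These ranges cover all scalings, columns, filters and prior counts tried. Whether any spread here is one between animals cannot be told from the labels.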
